A study of Mus musculus with 16 samples.

Results

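Accessible regions centred in introns are regions of open chromatin whose midpoint fell within an annotated gene but outside every exon and outside the promoters. Promoters were windows around each transcription start site (TSS), reaching 1000 bp to its upstream and 100 bp to its downstream side. Of the 79278 autosomal regions in the list, 27968 met this rule, and the whole list comprised 81132 regions. The midpoint, the gene models and the promoter window chose the members, and no measured level entered the choice.

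ATAC-seq, in which Tn5 transposase cuts and tags open chromatin, was performed on 12 libraries of SBROS cells. SBROS is a knock-in mouse ES cell line derived from CGR8, in which both SOX2 alleles carry a SNAP-tag but only 1 OCT4 allele a HALO-tag, and which also carries reporters for Sox1 and Brachyury. Cells were routinely grown in medium with foetal bovine serum, LIF, the GSK3 inhibitor CHIR99021 and the MEK pathway inhibitor PD184352. They were stained for both tags and, with Hoechst, for DNA, and sorted in G1 phase into 4 populations with 3 replicates each. In SHOH both factors were high and in SLOL both were low, whereas SHOL cells had high SOX2 with low OCT4 and SLOH cells the opposite. The labels call the cells mouse embryonic stem cells, which cannot be checked here against marker levels because the list holds no levels. All 4 populations came from this 1 line and shared the tags, the dyes and the medium. The merged list gave the position of each region and neither its level nor the libraries in which it was found, so the 4 populations were not compared, the reads behind a region are not given, and a region may have come from 1 library or from all 12. The 4 ChIP-seq samples were not analysed here. The intervals given below are 95% intervals that cover counting error only and treat regions as independent, although neighbouring regions can share a source.

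Introns are the parts of a transcript that splicing removes, and in mammals they make up most of the length of genes. Many distal enhancers lie in them, either those of the host gene or those of another gene nearby, and first introns often continue the open chromatin of the promoter. In ES cells, OCT4 and SOX2 bind many enhancers together, on an octamer and an adjoining SOX motif that form a composite site. CTCF, by contrast, marks loop anchors and insulators.

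The composite site joins CATTGT or CTTTGT to ATGCAAA with 1 base of any kind between them. Of the 27968 intronic regions, 11 (0.0393%, 95% Wilson interval 0.022 to 0.0704) held it on either strand. In flanks of the same width, 5 kb away and free of regions, 1 of 26012 held it, against 11 of the 26012 regions paired with them. Among the 10265 pairs whose GC contents were at most 5 percentage points apart, the shares were 0.039% and 0.00974%, and the interval of their difference, 0.0292 points, included 0 (-0.0135 to 0.0719). Of intergenic regions, 0.0323% held the site, and the interval of the difference from intronic regions also included 0 (-0.0269 to 0.0416). The hosts were Gpr176, Gm37240, Clca1, Cnpy1, Galnt17, Rgma, Prep, Ebf1, Ccser2, Fbxl17 and Slc25a46. They range from Ebf1, a B-cell transcription factor, to Rgma, a repulsive guidance molecule, and Clca1, a secreted regulator of chloride channels. The sequence around each site is shown because these intronic regions held the composite site in exactly the letters given above. Sites with other letters or another spacing were not counted. Each line gives the forward strand of mm10 with 40 bases to both sides of the site, and the site is in capitals. No sequence is printed for Slc25a46.
Gpr176 (chr2:118285439-118285532): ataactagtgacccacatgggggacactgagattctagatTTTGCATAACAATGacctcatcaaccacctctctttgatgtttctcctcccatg
Gm37240 (chr3:85338351-85338444): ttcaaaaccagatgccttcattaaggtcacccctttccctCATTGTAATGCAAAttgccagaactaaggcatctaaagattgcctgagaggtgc
Clca1 (chr3:145017970-145018063): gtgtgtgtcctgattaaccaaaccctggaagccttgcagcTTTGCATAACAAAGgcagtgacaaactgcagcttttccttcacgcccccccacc
Cnpy1 (chr5:28232249-28232342): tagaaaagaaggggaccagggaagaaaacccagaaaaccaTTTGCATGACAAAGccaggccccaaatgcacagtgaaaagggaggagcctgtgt
Galnt17 (chr5:131177321-131177414): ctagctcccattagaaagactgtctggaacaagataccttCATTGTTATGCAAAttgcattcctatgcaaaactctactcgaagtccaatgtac
Rgma (chr7:73400355-73400448): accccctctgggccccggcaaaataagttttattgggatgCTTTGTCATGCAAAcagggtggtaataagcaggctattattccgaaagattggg
Prep (chr10:45121840-45121933): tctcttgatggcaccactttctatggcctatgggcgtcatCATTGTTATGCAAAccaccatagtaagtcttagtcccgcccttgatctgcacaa
Ebf1 (chr11:44841842-44841935): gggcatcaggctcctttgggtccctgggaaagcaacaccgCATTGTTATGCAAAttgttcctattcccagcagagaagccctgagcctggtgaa
Ccser2 (chr14:36914748-36914841): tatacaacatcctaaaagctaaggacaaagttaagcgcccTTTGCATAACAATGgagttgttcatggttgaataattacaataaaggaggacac
Fbxl17 (chr17:63176577-63176670): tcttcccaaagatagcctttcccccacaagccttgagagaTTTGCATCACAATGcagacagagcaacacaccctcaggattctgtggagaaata

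The forms that end in ATGCAAA lie on the forward strand, and those that begin with TTTGCAT on the reverse strand. The region in Ebf1 was 137 bp wide and lay 224579 bp from the 5′ end of the gene, in intron 6 of 15. By contrast, the region in Rgma was 1411 bp wide and lay in intron 2 of 3, 24617 bp from the 5′ end. The region in Clca1 was the second closest to its host's 5′ end, at 14790 bp in intron 5 of 13, and that in Cnpy1 was the closest, at 13550 bp in intron 1 of 3. No composite site lay within 10 kb of the start of its host. Repeat-masked bases made up 48.3% of the region in Slc25a46, 45.7% in Prep and 44.6% in Cnpy1, where the site itself was partly masked, while in Gpr176 and Ebf1 they made up 0%.

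Esrrb, the orphan nuclear receptor of the naive pluripotency network, held more intronic regions than any other gene of that list, 15 in all, of which 11 lay in its first intron. They were spread from 4475 to 140895 bp from the 5′ end and from 130 to 712 bp in width. A SOX motif (CCATTGT or CCTTTGT) was found in 2 of them and the octamer (ATGCAAAT) in another 2, on either strand. Each count is 13.3% of the 15 regions (3.74 to 37.9), beside 16.0% for SOX and 2.72% for the octamer over all intronic regions. These 4 regions are shown as examples of such letters in a gene of the network, in lower case with the motif in capitals, on the forward strand of mm10, and limited to 300 bases around the motif where the region was wider.
Esrrb (chr12:86386024-86386323): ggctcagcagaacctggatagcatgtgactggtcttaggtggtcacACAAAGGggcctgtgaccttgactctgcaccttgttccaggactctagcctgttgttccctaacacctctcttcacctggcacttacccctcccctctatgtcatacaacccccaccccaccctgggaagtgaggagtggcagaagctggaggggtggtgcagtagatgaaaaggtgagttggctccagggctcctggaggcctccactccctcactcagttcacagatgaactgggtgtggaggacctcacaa
Esrrb (chr12:86433330-86433629): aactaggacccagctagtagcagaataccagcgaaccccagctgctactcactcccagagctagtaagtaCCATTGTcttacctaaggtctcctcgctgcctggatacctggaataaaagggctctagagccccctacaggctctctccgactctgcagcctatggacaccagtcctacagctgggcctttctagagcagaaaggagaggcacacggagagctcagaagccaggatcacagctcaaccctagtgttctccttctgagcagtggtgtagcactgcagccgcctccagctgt
Esrrb (chr12:86470971-86471270): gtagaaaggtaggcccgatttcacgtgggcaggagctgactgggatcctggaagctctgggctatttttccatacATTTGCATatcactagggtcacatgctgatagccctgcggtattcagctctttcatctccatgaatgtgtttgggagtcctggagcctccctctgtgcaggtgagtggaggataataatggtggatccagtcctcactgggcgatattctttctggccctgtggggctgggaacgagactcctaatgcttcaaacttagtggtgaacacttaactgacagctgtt
Esrrb (chr12:86478939-86479068): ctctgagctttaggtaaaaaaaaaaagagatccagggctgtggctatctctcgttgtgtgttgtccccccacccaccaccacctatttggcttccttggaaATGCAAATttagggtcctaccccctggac

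The first 2 hold the SOX motif and lie in intron 1, and the last 2 hold the octamer and lie in intron 2. The octamer regions were 110054 and 117887 bp from the 5′ end of Esrrb. None of the 15 regions held the composite site. The motif that ESRRB itself recognizes (TCAAGGTCA) was found in 3 of the 15 regions (20%, 7.05 to 45.2, beside 2.64% over all intronic regions), at 4475, 25103 and 140895 bp from the 5′ end, and the middle one of these also held a SOX motif.

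Introns held 35.3% of autosomal regions (34.9 to 35.6) and 41.7% of autosomal bases without sequence gaps, a ratio of 0.846. The share was 23.0% when promoters reached 5 kb to both sides of a TSS. Intergenic bases had a lower ratio of 0.698, exons 2.04 and promoters 5.58. Density was 28.0 regions per Mb in introns, 23.1 in intergenic bases, 67.6 in exons and 185 in promoters. Intronic regions were narrow, with a median width of 308 bp (quartiles 203 and 463, range 112 to 3210 bp), against 321 bp for intergenic, 382 bp for exon and 600 bp for promoter regions. Regions under 200 bp made up 23.9% of intronic regions and 9.06% of promoter regions. Base composition also set them apart from promoters. The median GC content was 50.1% in intronic regions and 60.7% in promoter regions, and the observed over expected CpG ratio was 0.232 and 0.687. Intergenic regions were close to intronic ones in both measures, with a GC content of 49.4% and a CpG ratio of 0.231. More than 50% of the bases were repeat-masked in 13.9% of the intronic and 22.4% of the intergenic regions.

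The midpoint places each region, while its ends can reach further. An exon was touched by 2629 intronic regions (9.4%) and a promoter window by 1218 (4.36%). At the limit of the promoter window, 475 intronic regions were centred 101 to 200 bp downstream of a TSS, with a median width of 657 bp, and 6034 promoter regions 0 to 100 bp downstream, with a median width of 698 bp. The gene models also overlap. A single gene lay over 26250 of the centres and at least 2 genes over 1718 (6.14%), in which case the host was taken as the protein-coding gene and then the longest. In all, 5 centres fell in no intron of their host. The closest TSS belonged to the host for 64.9% of the regions and to another gene for the others. The median distance was 37751 bp to the 5′ end of the host but 8531 bp to the closest TSS of any gene. Among the autosomes, chromosome 6 had 39.3 intronic regions per Mb of intron, and the other 18 ranged from 22.1 to 30.9 with a median of 26.6. On chromosome 6 lay 3 of the 10 hosts with the most regions (Sox5, Magi1 and Cntnap2) and 2 of the 10 densest hosts described below (Slc2a3 and Tead4). Cntnap2 shared the last place among the hosts with the most regions with Macrod2 on chromosome 2, at 35 regions each.

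First introns held 9955 regions, or 35.6% of the members in 30.4% of the intronic bases. Their density was 32.8 per Mb (32.1 to 33.4), while second introns had 26.4 (25.6 to 27.1), introns numbered 3 had 26.0 (25.0 to 27.0) and introns from the tenth on 25.0 (24.2 to 25.8). Introns 4 to 9 ranged from 25.4 to 28.3 per Mb, and from intron 2 to intron 9 the intervals of neighbouring orders overlapped. The density of first introns was 1.26 times that of all later introns (1.23 to 1.30). The difference was largest next to start sites. Within 1 kb of the closest TSS, first introns had 109 regions per Mb and later introns 46.4, a ratio of 2.34 (2.15 to 2.55). At 5 to 10 kb the values were 33.6 (32.1 to 35.1) and 30.2 (29.2 to 31.2). At 10 to 20 kb they were 29.1 (27.8 to 30.6) and 28.4 (27.5 to 29.3), and at 100 to 200 kb 12.1 (9.75 to 14.9) and 12.9 (11.7 to 14.1), with overlapping intervals at both distances. At 2 to 5 kb the order was reversed, with 28.2 (26.9 to 29.6) in first introns and 30.4 (29.3 to 31.5) in later ones. Last introns had 27.5 regions per Mb (26.5 to 28.6) and the introns between the first and the last 25.7 (25.3 to 26.1), a ratio of 1.07 (1.03 to 1.12).

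The place of an intron relative to the coding sequence gave a similar picture. Introns before the start codon had 33.2 regions per Mb (32.2 to 34.3), introns between coding exons 28.0 (27.6 to 28.3) and introns of transcripts without a coding sequence 24.1 (23.4 to 24.9). When first introns were left out, introns before the start codon had 26.6 regions per Mb (25.0 to 28.3) and coding introns 26.6 (26.1 to 27.0). Introns after the stop codon, which are rare and held 253 regions, had 34.3 per Mb (30.2 to 38.8), and 33.0 (28.8 to 37.6) without first introns.

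Density fell with distance from the 5′ end of the host, but not evenly. It was 119 regions per Mb (113 to 126) under 1 kb, 45.4 (42.4 to 48.7) at 1 to 2 kb and 25.8 (24.4 to 27.2) at 2 to 5 kb. It then stood higher again, at 35.9 (34.6 to 37.4) at 5 to 10 kb, and declined from there to 33.4 at 10 to 20 kb, 29.9 at 20 to 50 kb, 27.6 at 50 to 100 kb, 22.8 at 100 to 200 kb and 18.7 (18.1 to 19.3) beyond 200 kb. Regions within 1 kb were wider, with a median of 464 bp against 287 to 310 bp beyond 1 kb, and they were richer in GC and CpG (60.6% and a CpG ratio of 0.627). The CpG ratio was 0.399 at 1 to 2 kb, 0.258 at 2 to 5 kb and 0.204 beyond 200 kb.

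**Figure D1:**
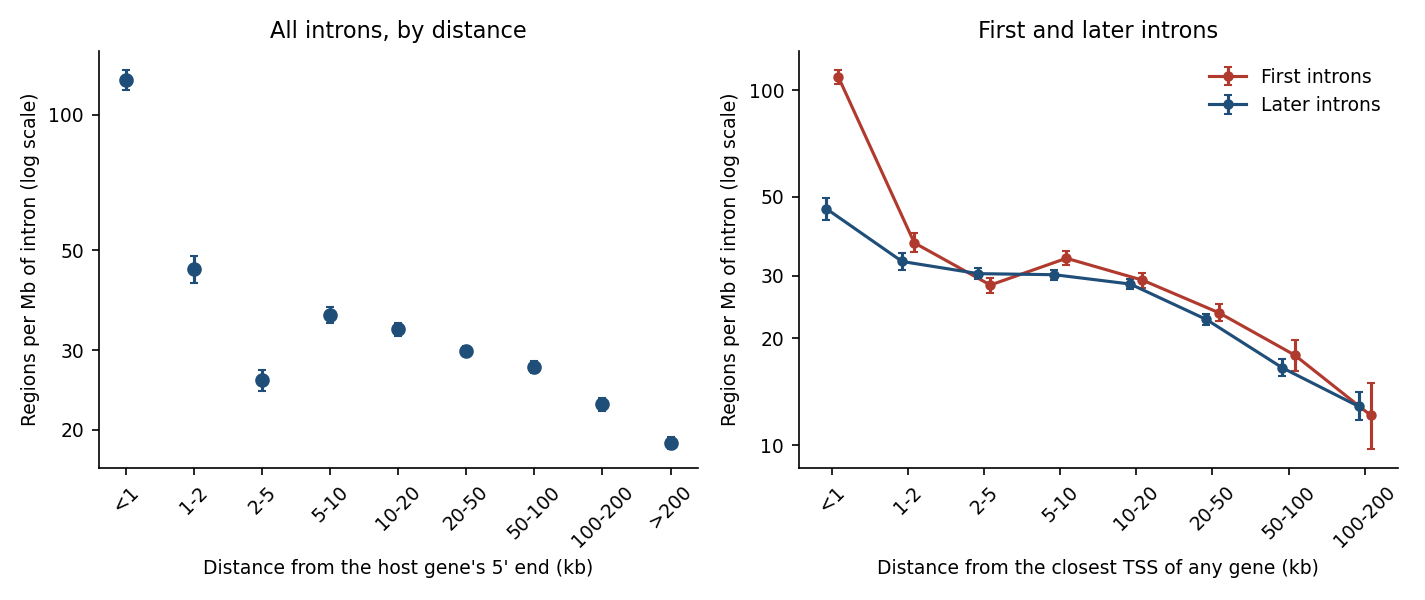
Density of intronic regions with 95% Poisson intervals, on log axes. Left, by distance from the 5′ end of the host gene, density fell from 119 per Mb under 1 kb to 25.8 at 2 to 5 kb, stood at 35.9 at 5 to 10 kb and reached 18.7 beyond 200 kb. Right, by distance from the closest TSS of any gene up to 200 kb, first introns (red) and later introns (blue) were farthest apart under 1 kb.

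The dip at 2 to 5 kb was compared between genes with and without an accessible promoter. In 11360 of the 18328 protein-coding hosts, a promoter region was centred in a promoter window of the gene. In these hosts, density was 25.1 per Mb (23.2 to 27.2) at 2 to 5 kb and 41.1 (39.1 to 43.2) at 5 to 10 kb from the 5′ end, a ratio of 1.64 (1.49 to 1.80). In hosts without such a region it was 26.3 (23.7 to 29.2) and 30.0 (27.5 to 32.7), a ratio of 1.14 whose interval included 1 (0.993 to 1.31). In bins of 500 bp, hosts with an accessible promoter had 22 regions per Mb (17.7 to 27.0) from 4.5 to 5 kb and 39.0 (33.2 to 45.5) from 5 to 5.5 kb. In the same bins, hosts without one had 26.9 (20.3 to 35.0) and then 16.2 (11.1 to 22.8), the opposite order, with intervals that overlapped.

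Distances were then taken from the centre of the closest promoter region. They come from the same list that had shown the dip, so the ratios below describe it and are no separate test. Promoter regions were split at their median width of 600 bp into 8262 wide and 8257 narrow ones. Around wide promoter regions, introns held 16.2 regions per Mb at 3 to 5 kb (252 regions) and 42.1 at 5 to 7 kb (630 regions), a ratio of 2.60 (2.25 to 3.02). Around narrow ones they held 42.8 (578 regions) and 52.9 (663 regions), a ratio of 1.24 (1.10 to 1.38). In bins of 250 bp around wide promoter regions, density was 11.4 per Mb at 4.5 to 4.75 kb, 24.4 at 4.75 to 5 kb, 33.4 at 5 to 5.25 kb and 45.2 at 5.25 to 5.5 kb. Intergenic bases showed the same step, with 25.0 and 54.2 regions per Mb around wide promoter regions, a ratio of 2.17 (1.85 to 2.55), and 52.1 and 60.3 around narrow ones, a ratio of 1.16 (1.01 to 1.33). Thus the step was not particular to introns. When run without a control library, MACS by default takes its local background from a window that reaches 5 kb to both sides of a position. Its part in the step was not tested.

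**Figure D2:**
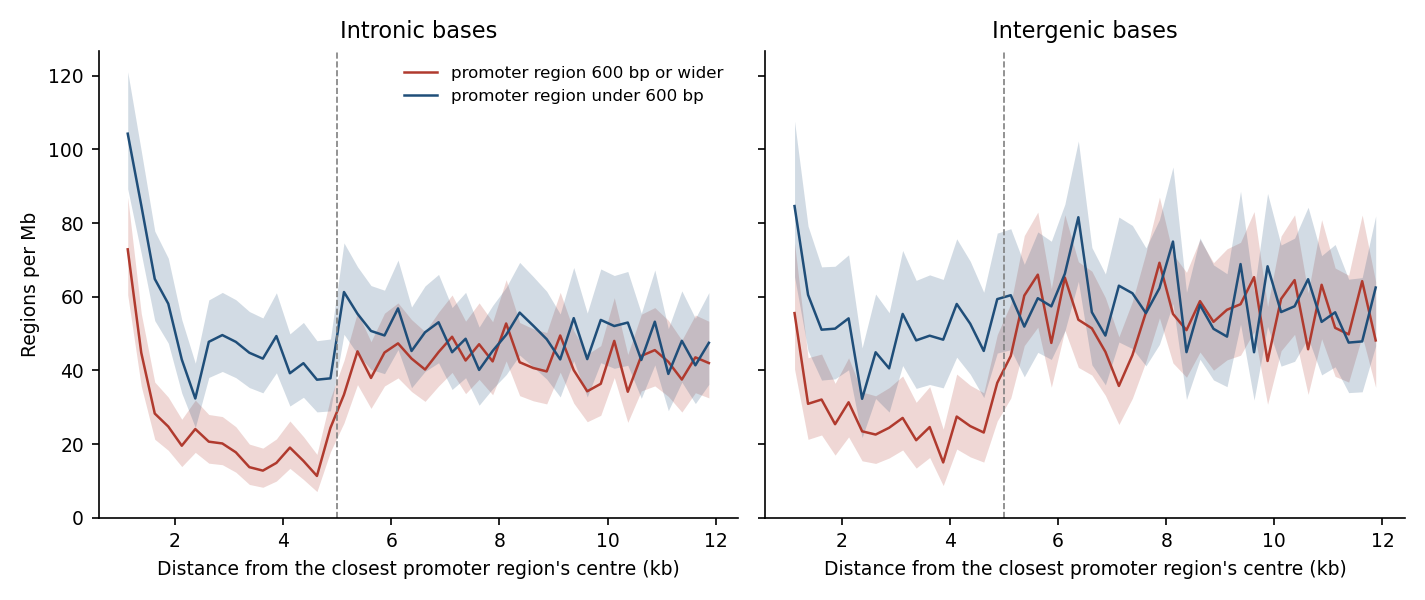
Regions per Mb in bins of 250 bp, from 1 to 12 kb from the centre of the closest promoter region, for intronic bases (left) and intergenic bases (right), with 95% Poisson intervals as shading. The dashed line marks 5 kb. Around wide promoter regions (red) density rose across the line, from 16.2 to 42.1 per Mb in introns between 3 to 5 and 5 to 7 kb, and around narrow ones (blue) from 42.8 to 52.9.

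Hosts with an accessible promoter had 29.5 intronic regions per Mb (29.0 to 29.9) and the other protein-coding hosts 26.5 (25.8 to 27.2), a ratio of 1.11 (1.08 to 1.15). Since long genes have low densities and most intronic bases, the ratio was also taken within classes of gene length. It was 1.68 (1.41 to 2.00) in genes under 10 kb, 1.15 (1.07 to 1.25) at 10 to 30 kb, 1.20 (1.14 to 1.27) at 30 to 100 kb, 1.26 (1.19 to 1.34) at 100 to 300 kb and 1.13 (1.05 to 1.21) over 300 kb. At least 1 intronic region was found in 5695 of the 11360 hosts with an accessible promoter and in 2178 of the 6968 without. These counts do not allow for intron length, which was 649 Mb in all in the former and 204 Mb in the latter. In the first 500 bp from the 5′ end the order was reversed. Hosts with an accessible promoter had 196 regions per Mb there (172 to 222) and the others 277 (250 to 305). A region centred just past the promoter window counts as intronic. It leaves its host without an accessible promoter if no other region is centred in a window of the gene.

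Density was lower in longer hosts. Genes of 10 to 30 kb had 37.4 intronic regions per Mb (36.2 to 38.6), genes of 30 to 100 kb 33.7, genes of 100 to 300 kb 29.1 and genes over 300 kb 18.4 (17.95 to 18.91). The ratio of the first of these classes to the last was 2.03 (1.95 to 2.11). Genes under 10 kb, with 36.6 (34.3 to 39.1), did not differ from those of 10 to 30 kb beyond counting error. Among bases over 10 kb from every TSS, density was 29.2 (26.7 to 31.8) in genes of 10 to 30 kb, 29.7 (28.7 to 30.8) at 30 to 100 kb, 26.0 at 100 to 300 kb and 16.5 (16.0 to 17.0) over 300 kb. Hence the classes up to 100 kb overlapped away from start sites, and genes over 300 kb stayed lower. Among the protein-coding hosts over 300 kb, 16 of 537 held no intronic region, and over 100 kb 202 of 2319.

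Protein-coding genes were hosts to 24544 regions (28.8 per Mb, 28.4 to 29.1). Long intergenic noncoding RNA (lincRNA) genes held 2129 (22.6 per Mb, 21.7 to 23.6), which was 0.787 times the density of protein-coding genes (0.752 to 0.823). Genes antisense to another gene held 618 (32.6 per Mb, 30.1 to 35.2), or 1.13 times (1.04 to 1.23). More than 10 kb from every TSS, the values were 23.4 (23.0 to 23.8) for protein-coding, 17.5 (16.4 to 18.7) for lincRNA and 24.8 (21.8 to 28.2) for antisense hosts, and the last no longer differed from protein-coding hosts beyond counting error.

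Within an intron, density was highest beside the exons, at 48.1 per Mb (46.2 to 49.9) less than 200 bp from the end of the intron, and lowest more than 20 kb from it, at 20.2 (19.6 to 20.8). Among bases over 5 kb from every TSS, it was 32.1 (30.1 to 34.3) under 200 bp, 25.9 (24.3 to 27.6) at 200 to 500 bp, 29.5 (28.2 to 30.9) at 1 to 2 kb, 26.1 (25.5 to 26.8) at 5 to 20 kb and 19.3 (18.7 to 19.9) beyond 20 kb. The interval under 200 bp overlapped that at 1 to 2 kb, and the class beyond 20 kb lay below all others. Bases that are not repeat-masked had 31.5 regions per Mb and masked bases 19.8, a ratio of 1.59 (1.54 to 1.64). The authors kept unique reads only, and bases where no read can be placed uniquely were not left out here. Their part in this ratio was not tested. Among unmasked bases over 5 kb from every TSS, the density under 200 bp from the intron end was 1.57 times that beyond 20 kb (1.45 to 1.70), and with masked bases included 1.67 times (1.55 to 1.79).

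Introns were then compared with intergenic bases at equal distance from the closest TSS of any gene. Without regard to distance, introns had 1.21 times the density of intergenic bases (1.19 to 1.23). At 2 to 5 kb they had 29.6 and 30.5 regions per Mb, a ratio of 0.970 (0.928 to 1.01), and at 5 to 10 kb 31.3 and 33.3, a ratio of 0.941 (0.906 to 0.978), whose interval included 1 with basic transcripts only (0.984, 0.947 to 1.02). At 20 to 50 kb the values were 22.9 and 21.7 (ratio 1.06, 1.02 to 1.10), at 50 to 100 kb 16.8 and 14.7 (1.14, 1.08 to 1.21) and at 100 to 200 kb 12.7 and 10.6 (1.20, 1.09 to 1.33). Under 1 kb, introns had 78.7 and intergenic bases 32.2. At that distance intergenic bases lie downstream of a TSS and past the end of its gene, since the promoter window takes the upstream side. They comprised 5.13 Mb against 33.6 Mb in introns. Between 1 and 200 kb, therefore, density fell from 34.6 to 12.7 per Mb in introns and from 33.4 to 10.6 in intergenic bases, and the ratio between them stayed within 0.941 and 1.20.

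**Figure D3:**
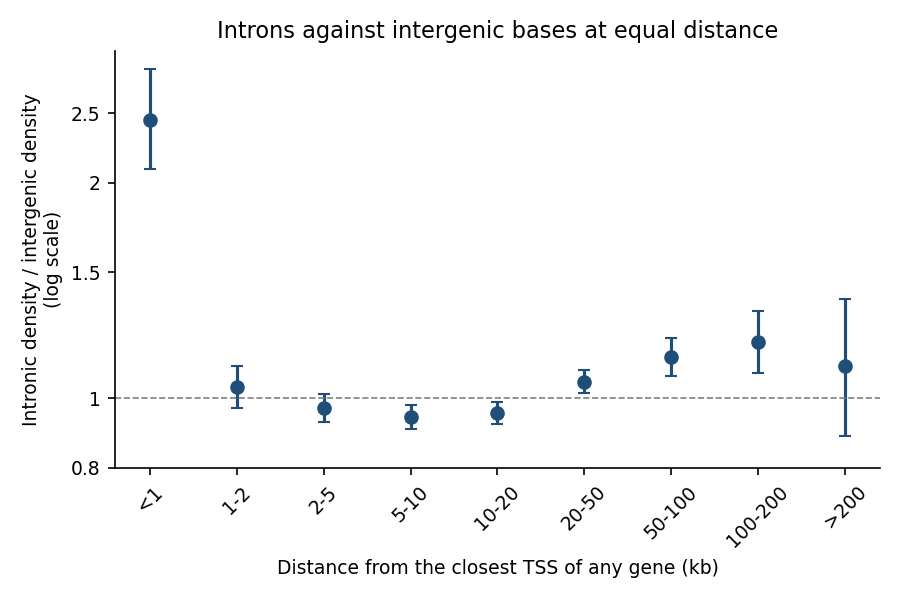
Ratio of the density of regions in introns to that in intergenic bases, by distance from the closest TSS of any gene, on a log axis with 95% conditional intervals. The dashed line marks equal density. The ratio was 2.45 under 1 kb, 0.941 at 5 to 10 kb and 1.20 at 100 to 200 kb.

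Motifs were counted on both strands in the 26012 intronic regions for which an equally wide flank without regions and sequence gaps lay 5 kb away. The flanks were poorer in GC, with a median of 44.5% against 50.0%. Accordingly, the 10265 pairs with GC contents no more than 5 percentage points apart were also compared. KLF motifs (GGGTGTGG or GGGCGTGG), read by the pluripotency factors KLF2, KLF4 and KLF5, were found in 12.5% of regions and 3.77% of flanks, a difference of 8.70 percentage points (8.24 to 9.16). The CTCF motif was found in 6.79% of regions and 0.154% of flanks, a difference of 6.63 points (6.32 to 6.94). SOX motifs were found in 16.2% and 12.8%, a difference of 3.31 points (2.72 to 3.90), and the ESRRB motif in 2.66% and 0.911%, a difference of 1.75 points (1.52 to 1.97). The octamer was found in 2.73% of regions and 2.49% of flanks, a difference of 0.238 points whose interval included 0 (-0.0356 to 0.512). With flanks 2 kb away the difference was 0.534 points (0.271 to 0.798). Among the pairs of similar GC, it was found in 3.40% and 1.96%, a difference of 1.44 points (1.00 to 1.88).

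Of the other motifs, the E-box read by TFE3 and TFEB (CACGTGAC) was in 1.52% of regions and 0.554% of flanks, the STAT motif (TTCCNGGAA), read by STAT3 downstream of LIF, in 1.75% and 1.03%, and the NRF1 motif (GCGCATGC) in 1.16% and 0.669%. The AP-1 motif (TGANTCA) was in 11.4% and 10.3%. Their differences excluded 0 over all pairs. Over the pairs of similar GC, that of NRF1 was 0.234 points and included 0 (-0.0195 to 0.487). A match of letters is not a bound site. The letters of SOX and AP-1 are short and were also found in over 10% of flanks.

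**Figure D4:**
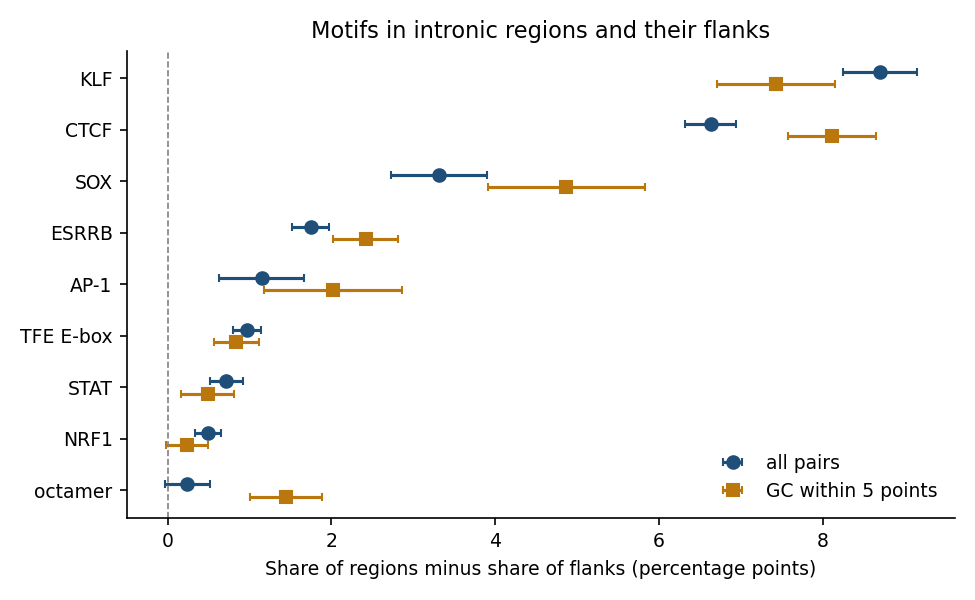
Share of intronic regions with a motif minus the share of flanks with it, in percentage points with 95% intervals, for 26012 pairs (circles) and for 10265 pairs of similar GC content (squares). KLF and CTCF had the largest differences, and the octamer moved from 0.238 to 1.44 points between both sets of pairs.

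Motif content varied with the place in the gene. CTCF was found in 2.08% of intronic regions under 1 kb from the 5′ end of the host, 3.66% at 1 to 2 kb and 6.41 to 7.48% in each class beyond 2 kb. First-intron regions held it in 4.83% and later introns in 7.96%. NRF1, a factor of CpG-rich promoters, went the other way, with 3.74% under 1 kb and 0.642% beyond 200 kb. KLF motifs went from 16.3% under 1 kb to 9.90% beyond 200 kb. SOX motifs and the octamer were most frequent far from the 5′ end, with 18.4% and 3.98% beyond 200 kb against 14.1% and 2.22% under 1 kb, although the regions under 1 kb were wider. The median GC content fell from 60.6% to 48.4% between the same classes, and its part in these shares was not tested. Compared with intergenic regions, intronic regions held KLF motifs more often (12.6% against 11.0%, a difference of 1.55 points, 1.01 to 2.08) and SOX motifs less often (16.0% against 18.1%, -2.09 points, -2.72 to -1.47). The octamer was also less frequent in intronic regions (2.72% against 3.05%, -0.327 points, -0.605 to -0.0490). So was CTCF (6.84% against 7.30%, -0.456 points, -0.882 to -0.0305). The TFE E-box and NRF1 motifs were more frequent, by 0.391 (0.200 to 0.583) and 0.188 points (0.0137 to 0.363). For ESRRB the difference was 0.0582 points and included 0 (-0.206 to 0.323). Compared with promoter regions, intronic regions held CTCF more often (6.84% against 2.70%) and NRF1 less often (1.20% against 5.45%). Promoter regions were wider (median 600 against 308 bp) and richer in GC (60.7% against 50.1%), and the part of both in these shares was not tested.

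The regions were spread over 9610 host genes, 7873 of them protein-coding, and over 17649 introns. A single region lay in 12828 of these introns, whereas 648 introns with 5 or more held 4923 regions, or 17.6% of the members. Of the protein-coding hosts, 43.0% held a region, and the median host held 0. At the other end, 421 protein-coding hosts with 10 or more held 27.1% of the regions in protein-coding hosts. The 2 hosts with the most regions were very long gene models. Gm20388 had 192 regions, all in a first intron that reached over 4384 kb of chromosome 8, and Fgfr2, the gene of an FGF receptor, had 97 over a model of 2961 kb on chromosome 7. These models enclose 71 and 29 other protein-coding genes, and 107 and 65 of their regions also lay over another gene, so that the counts belong to the models and not to these genes alone.

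Among the next hosts, Sox5, a SOX transcription factor of neural and cartilage development, held 52 regions in 923 kb of intron (56.3 per Mb, 42.1 to 73.8). The cyclic AMP phosphodiesterase Pde4d held 50 (33.9 per Mb), Auts2, a gene of neuronal development, 46 (46.2 per Mb), the transcriptional activator Camta1 43 (48.0 per Mb), the scaffold protein Magi1 42 (70.7 per Mb) and Etl4 38 (44.2 per Mb). Cntnap2, a neuronal adhesion gene, held 35 in 2144 kb (16.3 per Mb, 11.4 to 22.7), below the 28.8 of all protein-coding hosts. The lincRNA gene C230088H06Rik on chromosome 4 held 50 in 293 kb (171 per Mb, 127 to 225). By single introns, Pde4d held 32 regions in intron 3 (708 kb, 45.2 per Mb), and Magi1 held 28 in intron 1 (340 kb, 82.4 per Mb). Gm37240, a gene model on chromosome 3, also held 28 in an intron of 1245 kb (22.5 per Mb). Together with the first intron of Gm20388 and the second intron of Fgfr2, which held 88, these were the 5 introns with the most regions.

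Densities of single hosts were ranked among the protein-coding genes with at least 10 intronic regions, since genes with fewer can reach higher values on a small count. Ccdc92, which encodes a coiled-coil protein, held 21 intronic regions in 24.0 kb of intron (874 per Mb, 541 to 1336), of which 18 lay in first introns. All regions centred in the gene covered 44.4% of its length, while 0 regions were centred in the 40 kb before it and 1 in the 40 kb after it along the chromosome. Slc31a1, the copper importer, held 17 in 24.2 kb (702 per Mb, 409 to 1124), with 2 and 3 regions in the 40 kb to each side. Ppp2r5a, a regulatory subunit of protein phosphatase 2A, held 18 in 38.8 kb (464 per Mb, 275 to 734), with 3 and 5 to each side. The list holds no level, so the copy number of these 3 genes in the line was not tested. The other hosts among the 10 densest with at least 10 regions were Dtwd2 (276 per Mb), Sfi1 (261), Clip2 (205), Glt1d1 (198), the glucose transporter Slc2a3 (179), Gcnt2 (158) and Tead4 (156), the transcription factor of trophectoderm specification. Sfi1 has many near-identical copies in the mouse genome, and their part in its count was not tested. Among all autosomal regions, only 2 runs with gaps of at most 1000 bp held 8 or more intronic regions. One, in Ppp2r5a, had 13 regions, 12 of them intronic, over 13.5 kb (chr1:191371694-191385206) and covered 67.3% of it. The other, in Ccdc92, had 11 regions, all intronic, over 10.5 kb (chr5:124836014-124846488) and covered 70.7%. These limits for runs were chosen after the counts of both genes had been seen. Among intronic regions in general, 19.9% had another region within 1000 bp (19.5 to 20.4), and among intergenic regions 18.7% (18.2 to 19.1).

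Nrg3, a neuregulin of the nervous system, was the protein-coding host with the most intronic bases and 0 regions. It had none in 1090 kb, where a count of 0 allows up to 3 regions as a one-sided limit, or 2.75 per Mb, and the exact two-sided Poisson interval reaches 3.38 per Mb. At the 18.4 per Mb of genes over 300 kb, 20.1 would lie there. The long neural adhesion and synapse genes, Nrg3 among them, had a lower density of 12.1 per Mb. Skint5, Cpq, L3mbtl4 and Kcnh7 had none in 517, 501, 495 and 473 kb, where 8.71 to 9.53 would lie at the density of genes over 300 kb. All of these hosts were picked for their count of 0, so the values are no test. A promoter region was found in Nrg3, Cpq, L3mbtl4 and Kcnh7 and not in Skint5.

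The widest intronic region was 3210 bp and lay in the first intron of Mapk6, an atypical MAP kinase, at chr9:75400058-75403267. It was followed by one of 2265 bp in the first intron of Gdf3, a TGF-beta ligand of pluripotent cells (chr6:122607720-122609984), one of 2257 bp in intron 13 of the muscle chaperone gene Unc45b with a GC content of 74.6% (chr11:82930040-82932296), one of 2130 bp in the first intron of Ppp2r5a (chr1:191373754-191375883) and one of 2108 bp in AC174800.1, with 63.7% repeat-masked bases (chr17:13585951-13588058).

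Gene lists were described by their counts, beside those over all 18328 protein-coding hosts, of which 43.0% held a region at 28.8 per Mb. Of the pluripotency network, 22 of 25 genes were hosts, and 15 of them held 54 regions (97.1 per Mb, 72.9 to 127, median 1 per gene). The median length of the 22 hosts was 14.9 kb, and hosts of 10 to 30 kb of all kinds together had 37.4 regions per Mb. However, Esrrb, Nr5a2 and Tead4, of 161, 118 and 76.5 kb, had 151, 109 and 70.5 kb of the list's 0.556 Mb of intron. Hosts of 30 to 100 kb had 33.7 regions per Mb and those of 100 to 300 kb 29.1. Sox2 and Zfp281 had no intronic base and Nr0b1 is not autosomal. Esrrb held 15 regions, Nr5a2, a nuclear receptor that can replace OCT4 in reprogramming, 5, and Tfcp2l1, a naive-state transcription factor downstream of LIF, 5. The list also holds Tead4, known for trophectoderm specification and not as a gene of this network, with 11 regions. Without Tead4 the list had 43 regions at 88.6 per Mb (64.1 to 119). In 7 hosts of the list no region was found. The formative and primed genes, which act after cells leave the naive state, had 43 regions in 8 of 12 hosts (78.2 per Mb, 56.6 to 105, median 1.5), and the median length of the 12 was 20.2 kb. Rbpj, Grhl2 and Lef1, of 191, 131 and 114 kb, had 168, 115 and 99.7 kb of their 0.550 Mb of intron. Rbpj, the effector of Notch, held 13, Lef1, the WNT effector, 12, Dnmt3a, a de novo DNA methyltransferase, 8 and Grhl2, an epithelial transcription factor, 4. The 4 without a region were Etv4, Otx2, Tcf15 and Zic2, named after their counts were seen.

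All 19 hosts of the list of neural transcription factors held a region, 231 in all, at 33.9 per Mb (29.6 to 38.5) and with a median of 7 per gene. Their median length was 302 kb against 20.9 kb for all protein-coding hosts. Hosts of all kinds together had 29.1 regions per Mb at 100 to 300 kb and 18.4 over 300 kb. Sox5 held 52, Nfib 25 and Foxp1 24. Auts2, which is in the list but is not a DNA-binding transcription factor, held 46, and without it the density was 31.7 per Mb (27.3 to 36.7). Hosts on chromosome 6 held 83 of the 231, and without that chromosome the list had 30.7 regions per Mb (26.0 to 36.1), beside 28.0 over all protein-coding hosts. Of the mesendoderm transcription factors, 12 of 22 (54.5%) held 33 regions (23.2 per Mb, 16.0 to 32.6, median 1). This interval overlapped that of the neural factors. Runx1, a regulator of blood formation, held 6, Mecom 5 and Runx2, a regulator of bone formation, 5. The median length of the list was 20.5 kb. Mecom, Runx2 and Runx1, however, span 597, 319 and 225 kb and had 554, 266 and 210 kb of its 1.42 Mb of intron. The density thus rests largely on these long genes. The 10 hosts without a region were Eomes, Foxa2, Gata6, Hand2, Lhx1, Mesp1, Mixl1, Sox17, T and Tbx6, named after their counts were seen. Genes of the pathways that the 2i and LIF medium acts on held 179 regions in 19 of 28 hosts (44.6 per Mb, 38.3 to 51.6, median 2), of which 97 were those of the Fgfr2 model. Without Fgfr2 the list had 82 regions at 59.2 per Mb (47.1 to 73.4). Tcf7l1, the WNT repressor that CHIR99021 relieves, held 19 in 141 kb of intron (135 per Mb), Gsk3b, the kinase that CHIR99021 inhibits, 9, and Etv5, an ETS factor downstream of FGF and ERK signalling, 8.

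Chromatin regulators held 83 regions in 26 of 32 hosts (37.3 per Mb, 29.7 to 46.3, median 1). Arid1b, a subunit of the BAF remodeller, held 18, Dnmt3a 8, Tet1, a DNA demethylase, 8 and the histone demethylase Kdm2b 6, and 7 of the 8 in Tet1 lay in a first intron. Finally, 31 of 32 long neural adhesion and synapse genes held 477 regions, at the lowest density of these lists (12.1 per Mb, 11.0 to 13.2, median 13). Cntnap2 held 35, and Nrg3 alone held 0. The list also holds Macrod2, an ADP-ribose hydrolase with 35 regions, Galntl6, of a glycosyltransferase family, with 7, and Sgcz, a sarcoglycan, with 5. Without these 3 genes the density was 12.2 per Mb (11.1 to 13.4). Without chromosome 6, which held 128 of the 477, the density was 10.7 per Mb (9.61 to 11.9). The median length of these genes was 1137 kb, and all protein-coding and other hosts over 300 kb together had 18.4 regions per Mb.

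**Figure D5:**
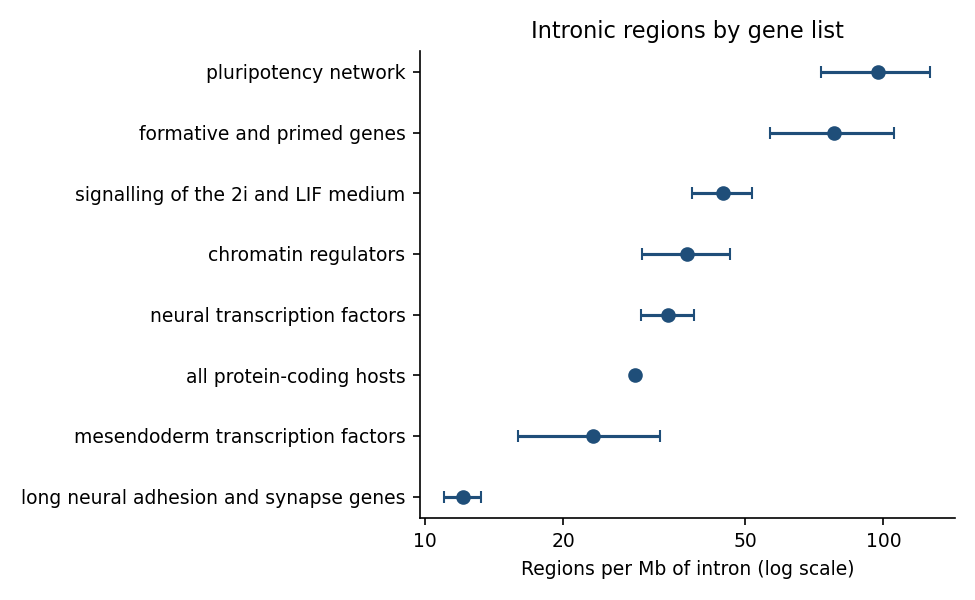
Intronic regions per Mb of intron for the genes of each list and for all protein-coding hosts, on a log axis with 95% Poisson intervals. The pluripotency network stood at 97.1 per Mb, all protein-coding hosts at 28.8 and the long neural adhesion and synapse genes at 12.1.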

How the data were processed

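The authors aligned ATAC-seq reads to mm10 with STAR (version 2.5.3a per their processing notes), kept unique reads, removed duplicates with Picard and called peaks per library with MACS2 (2.1.1.20160309) on whole fragments, without a stated Tn5 shift. BEDOPS joined the peaks of the libraries into 1 list, from which those overlapping peaks of a ChIP-seq input were removed. The deposited file holds 3 columns, chromosome, start and end, with no other measurement or score, so no test over samples was possible. The methods give a range of reads sequenced for the libraries, but the list gives neither the depth of a library nor the reads behind a region.

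Regions were placed on GENCODE M21 with Python (3.11.15), numpy (2.4.6), pandas (2.3.3) and scipy (1.17.1). No region ended past a GRCm38 chromosome. The host was the protein-coding gene over the centre, then the longest, and intron order followed a transcript of the host. Density is the number of centres per Mb of intronic bases of the same class. Shares have Wilson, densities exact Poisson and density ratios exact conditional 95% intervals. Class assignment, densities and motif counts were tested on simulated data first. The named genes were those with the most or densest regions, long hosts with 0, the introns with the most regions, the widest regions, the top 4 of each list and the hosts of composite sites. A few genes that this rule names are not reported here. Members and lists were chosen with earlier results of these data known. Plots were drawn with matplotlib (3.10.9). Alternatives are given in the closing section.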

Additional observations from a re-analysis of the deposited data

Results flagged for a closer look

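The autosomal rule leaves out the sex chromosomes, which also held regions centred in introns. The X chromosome had 462, or 10.1 per Mb of intron, against 22.1 to 39.3 per Mb over the autosomes. The Y chromosome had 5, or 0.866 per Mb. Both were singled out because they lie outside the comparisons of the report.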

How the results depend on the processing

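The list names no library, so leaving out a replicate was not possible. No paired analysis was possible because the list gives no value per sample. Of 73 alternatives over 22 values, 41 stayed within the 95% interval of the reported value and 32 moved past it, none to the other side of equality where the reported interval excluded it. Chosen after seeing the data were the shortest gene as host, the 2 longest models left out, bases over 5 kb from every TSS, unmasked bases only, the gene lists without chromosome 6 or without members of another known role and every alternative of the step at 5 kb.

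The share of 35.3% centred in introns was 36.4% with promoters of 500 bp upstream, 23.0% with promoters of 5 kb to both sides, 37.0% with basic transcripts, 32.1% with protein-coding genes alone and 33.5% without regions under 200 bp. The ratio of first to later introns, 1.26, was 1.12 with promoters of 5 kb, 1.12 over 5 kb from every TSS and 1.32 over unmasked bases. That of distances under 1 kb and over 200 kb from the 5′ end, 6.38, was 5.62 from the closest TSS of the host, 7.10 without narrow regions, 4.99 with neighbours joined and 6.82 over unmasked bases. The ratio by gene length, 2.03, was 2.14 for protein-coding hosts, 1.77 over 10 kb from every TSS and 2.16 over unmasked bases, and that of lincRNA hosts, 0.787, was 0.748 over 10 kb. For accessible promoters, 1.11 became 1.15 over 10 kb, 1.28 when a window of 5 kb decided, 1.06 without narrow regions and 1.06 over unmasked bases. With basic transcripts, the ratio to intergenic bases was 0.984 at 5 to 10 kb (its interval now included 1) and 1.33 at 50 to 100 kb. Without chromosome 6, the long neural adhesion and synapse genes had 10.7 regions per Mb, and the other 6 lists stayed within their intervals.

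With flanks 2 kb away, the octamer differed by 0.534 points (its interval now excluded 0) and SOX by 4.16. Over pairs of similar GC, the differences were 1.44 (octamer), 4.87 (SOX), 2.42 (ESRRB), 7.43 (KLF) and 8.12 points (CTCF), and without narrow regions 9.75 (KLF) and 7.40 (CTCF).

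The list limits what can be read from it. Without levels, a region of 1 library counts as much as one of all 12, and the density of weak regions can depend on depth, which the list does not give.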
